A study of Mus musculus with 12 samples.

Results

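The splicing factor gene families were the rows of the deposited table whose symbol begins with Srsf, Hnrnp, Snrp, Sf3a, Sf3b, U2af or Prpf, with pseudogene rows left out. They came to 65 of the 14560 listed genes: 10 Srsf, 20 Hnrnp, 11 Snrp, 3 Sf3a, 6 Sf3b, 2 U2af and 13 Prpf genes. They were followed through 4 populations sorted from the bone marrow of C57BL/6 mice, with 3 libraries of each and 12 in all. DN-GMPs were Sca1- c-Kit+ CD34+ CD16/32+ progenitors that lacked both E-cadherin (CDH1) and the IgE receptor chain FceRIa. Pro-BMPs shared that gate but carried CDH1, and Pre-BMPs carried FceRIa with CDH1 given as absent. Basophils were c-Kit- CD49b+ FceRIa+ cells without the B cell, T cell and erythroid lineage markers. No population was treated or genetically altered, per the labels. The series speaks of triplicates from 3 mice, but no label ties a library number to a mouse, so p-values speak of the spread between libraries and no more.

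Most genes are transcribed with introns, which the spliceosome removes in the nucleus. Small nuclear ribonucleoproteins (snRNPs) recognise the splice sites: U1 binds the 5′ splice site, U2AF marks the 3′ splice site, and U2 with the SF3a and SF3b complexes binds the branch point. Each spliceosomal snRNP except U6 carries a ring of Sm proteins encoded by Snrp genes, while PRPF proteins act in the U4/U6.U5 tri-snRNP, in the large complex around PRPF19 and in catalysis. SR proteins, encoded by Srsf genes, mostly favour the use of nearby splice sites, and hnRNP proteins often oppose them, so the balance of both classes bears on which exons are kept. SRSF and HNRNP genes commonly hold poison exons or similar switches through which their own proteins limit their mRNA.

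Promoter sequences of 6 members are printed, chosen from the members called in comparisons of basophils with earlier cells. Each window of 150 bases runs from 120 bases before the annotated start to 30 after it, read 5′ to 3′ on the strand of the gene, from RefSeq on GRCm38.p6. Capitals mark matches, on either strand, to the 6 motifs searched, which in these windows were CCAAT, the GC box GGGCGG and the ETS core CCGGAAG. The E-box CACGTG was searched as well, as were the YY1 motif AAGATGGC and the TATA box, spelled TATAAA. Hnrnpa1 (chr15:103240277-103240426, plus strand), Srsf10 (chr4:135855951-135856100, plus strand), Snrpa1 (chr7:66060216-66060365, plus strand) and Prpf31 (chr7:3629865-3630014, plus strand) were lower in basophils. Srsf5 (chr12:80945379-80945528, plus strand) and Sf3b1 (chr1:55027449-55027598, minus strand) had positive changes.
Hnrnpa1: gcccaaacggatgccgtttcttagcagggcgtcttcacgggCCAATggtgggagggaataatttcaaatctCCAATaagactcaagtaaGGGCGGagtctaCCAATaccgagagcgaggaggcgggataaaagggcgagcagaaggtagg
Srsf10: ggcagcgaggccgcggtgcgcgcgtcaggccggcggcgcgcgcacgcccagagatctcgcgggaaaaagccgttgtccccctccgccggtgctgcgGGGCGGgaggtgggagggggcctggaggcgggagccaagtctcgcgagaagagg
Snrpa1: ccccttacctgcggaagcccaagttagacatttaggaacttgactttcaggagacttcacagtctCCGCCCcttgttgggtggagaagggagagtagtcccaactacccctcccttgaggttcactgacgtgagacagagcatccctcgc
Prpf31: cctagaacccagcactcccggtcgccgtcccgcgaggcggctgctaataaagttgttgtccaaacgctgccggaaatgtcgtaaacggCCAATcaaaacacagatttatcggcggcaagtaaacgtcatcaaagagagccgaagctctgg
Srsf5: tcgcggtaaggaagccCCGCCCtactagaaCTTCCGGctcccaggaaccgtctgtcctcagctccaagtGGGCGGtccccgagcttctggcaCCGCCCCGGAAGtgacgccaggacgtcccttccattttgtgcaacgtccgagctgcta
Sf3b1: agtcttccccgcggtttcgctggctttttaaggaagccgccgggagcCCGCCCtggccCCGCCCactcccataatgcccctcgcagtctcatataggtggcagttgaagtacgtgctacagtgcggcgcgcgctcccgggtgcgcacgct
The Hnrnpa1 window held CCAAT on the gene's own strand at 3 places. The Srsf5 window held the ETS core and the GC box more than once each, with 1 ETS core sharing a base with a GC box. Over the 56 members with a RefSeq promoter, CCAAT was found in 41.1%, against 28.1% of the 9782 promoters of all listed genes cut to the same length. The ETS core was in 14 of the 56 and in 15.1% of all, and the E-box in 12.5% and 6.9%. The GC box was in 53.6% and 54.8%, the YY1 motif in 3.6% and 2.8%, and TATAAA in 7.1% and 3.0%. These are matches of letters in 1 window per gene, with no test.

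The deposited values were log2 of reads per 1000000 (CPM) of a scaled library size, and levels are given here as CPM without the read fraction that the authors added. Listed genes held 29762981 to 42502405 reads in a library, and 64 of the 65 members were above 1 CPM in all 12 libraries. The labels fitted the marker genes: the sum of 8 basophil genes in DN-GMPs was 105.6 to 138 CPM, that in Pro-BMPs 1059 to 1396, that in Pre-BMPs 4978 to 6012 and that in basophils 38495 to 44535. Other lineages also differed between the populations. For 4 neutrophil progenitor genes the sum in DN-GMPs was 18673 to 21505 CPM, that in Pro-BMPs 17430 to 19433, that in Pre-BMPs 5319 to 6305 and that in basophils 2842 to 4007. Eosinophil genes (6 listed) ran at 1.44 to 12.7, 1564 to 2658, 1969.9 to 3380 and 160.4 to 334 CPM in the same order. Monocyte and dendritic cell genes (5 listed) ran at 1810 to 2131, 362 to 459, 55.8 to 65.1 and 416 to 562 CPM in that order. Of the mast cell genes, Cma1 and Tpsb2 were listed and summed to 82.7 to 289 CPM in Pre-BMPs and to at most 1.74 CPM elsewhere.

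Splicing factor mRNA, summed over the members, was highest in DN-GMPs and lowest in basophils. The sum of the 65 members in DN-GMPs was 13575 to 14786 CPM, that in Pro-BMPs 12456 to 13207, that in Pre-BMPs 11273 to 12046 and that in basophils 9753 to 9889, so that no library of 1 population overlapped with another population's. The Sf3b genes as a family were lowest in Pre-BMPs, at a mean sum of 1204 CPM against 1235 in basophils, with overlapping libraries. The mean level was highest in DN-GMPs for 47 members and lowest in basophils for 49. For 36 members (55.4%) the 4 means descended in the order of the stages, against 15.6% of all listed genes. Ascending means were found for Hnrnpf and Srsf5, that is 3.08% of members, against 14.1% of all listed genes. In limma's moderated F-test over the 4 populations, 47 members passed an adjusted p of 0.05, which is 72.3% against 46.8% of all listed genes. The members with the smallest F-test p were Hnrnpa1, Srsf7, Hnrnpd, Hnrnpab and Snrpa1, with adjusted p of 1.19e-06, 6.47e-06, 6.71e-06, 7.17e-06 and 1.12e-05. In bulk RNA, fewer cells of a type and less RNA per cell cannot be told apart.

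**Figure D1:**
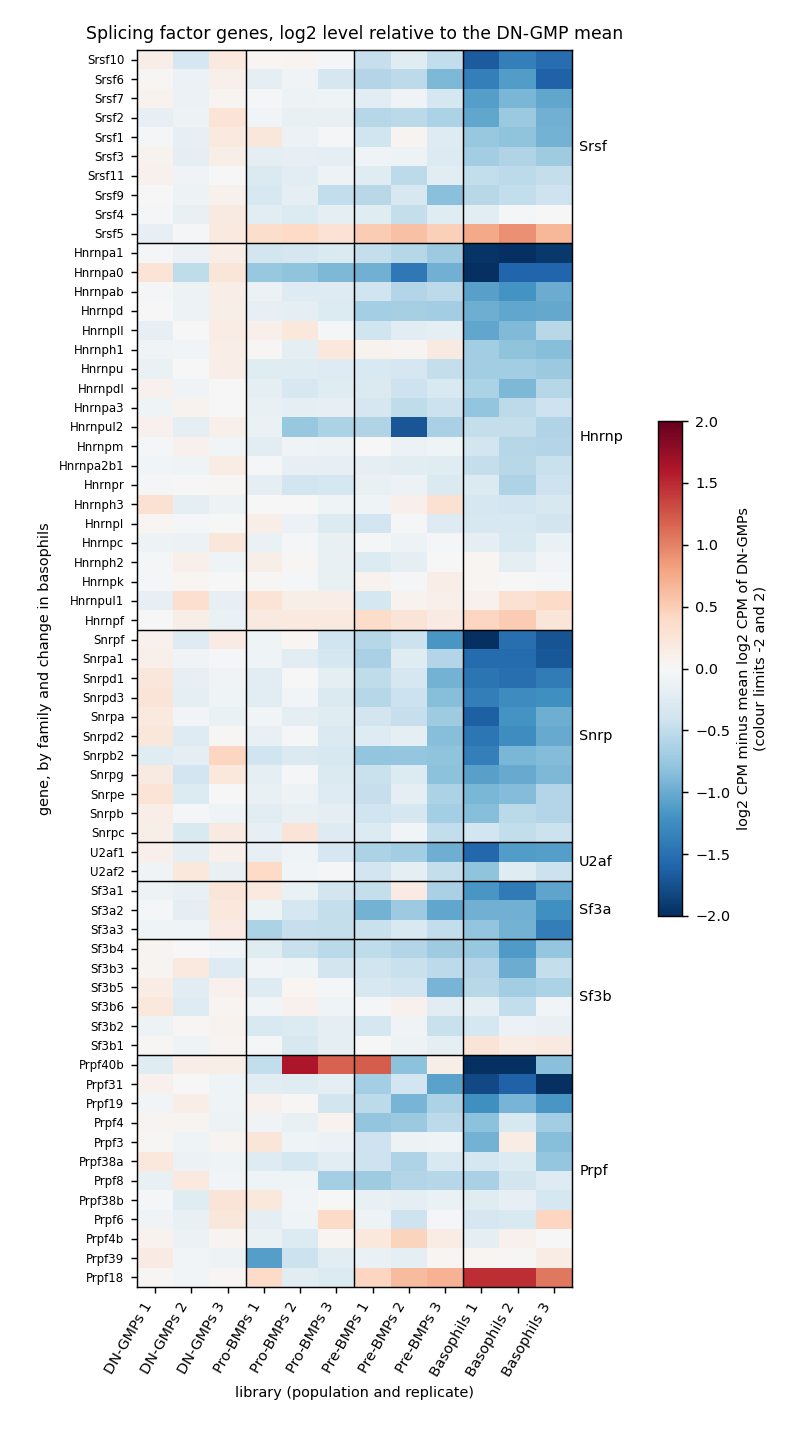
Log2 CPM of the members in each of the 12 libraries, with 1 member not drawn, as the difference from that member's mean over the 3 DN-GMP libraries, with members in rows by family and libraries in columns by population. Colours stop at -2 and 2. Most rows are below the DN-GMP mean (blue) in basophils, and Srsf5, Hnrnpf, Sf3b1 and Prpf18 are among those above it (red).

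Other measures moved with that order. The share of reads on no annotated feature in DN-GMPs was 6.65% to 7.77%, that in Pro-BMPs 7.69% to 8.42%, that in Pre-BMPs 9.15% to 10.2% and that in basophils 11.2% to 12.6%. The share of reads that aligned to more than 1 place in DN-GMPs was 10.3% to 12.1%, that in Pro-BMPs 9.87% to 10.6%, that in Pre-BMPs 9.53% to 10.1% and that in basophils 8.51% to 8.66%. The sum of 20 cell cycle genes in DN-GMPs was 5549 to 5997 CPM, that in Pro-BMPs 5377 to 5607, that in Pre-BMPs 5182 to 5526 and that in basophils 3985 to 4761. Not all of the 20 went that way. In basophils against DN-GMPs 11 were called lower, and Mki67 and Top2a higher, where 23.2% of all listed genes were called each way. Against Pre-BMPs 8 were called lower and Rrm2 higher, where 16.5% and 13.9% of all listed genes were. The mean sums of the basophil markers given above ascended along the same order, and those of the neutrophil progenitor genes descended. Of the neutrophil progenitor genes, Ctsg was called higher in basophils against Pre-BMPs (log2 change 0.79, adjusted p 0.000158), and the other 3 were called lower. The part of these measures in the splicing factor levels was not tested.

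In basophils against Pre-BMPs, the last step, 26 of 65 members fell and Prpf18 and Sf3b1 rose, with Sf3b1 turning negative under total-read or quantile scaling, so 43.1% of members were called against 30.4% of all listed genes. Over all listed genes, 16.5% were called lower and 13.9% higher. With total-read scaling 44 members were called lower and 0 higher (3813 and 1379 of all genes, in place of 2408 and 2019), and after quantile normalization 40 were lower and 1 higher. The median log2 change of the members was -0.28, against -0.10 over all listed genes, a difference of -0.18. Total-read scaling moves every gene alike, with the median of all genes at -0.42. Quantile normalization gave a median of -0.54 in members and -0.05 over all genes, a difference of -0.48. All 3 basophil libraries lay below all 3 Pre-BMP libraries for 36 of 65 members, against 24.2% of all listed genes, and above them for 4, against 22.3%. In basophils against DN-GMPs, the widest comparison, 44 members fell and Prpf18, Srsf5 and Hnrnpf rose, which is 72.3% against 46.4% of all listed genes, with 23.2% of all genes called lower. With total-read scaling 56 members were lower and 2 higher (4276 and 2702 of all genes, in place of 3376 and 3373). In the limma fit of the deposited values the median log2 change was -0.66 in members and -0.01 over all genes. Called falls of 1 log2 unit or more were found for 21 of the 65 members and for 2378 of the 14560 listed genes. Both comparisons use the same basophil libraries and are not independent of each other.

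**Figure D2:**
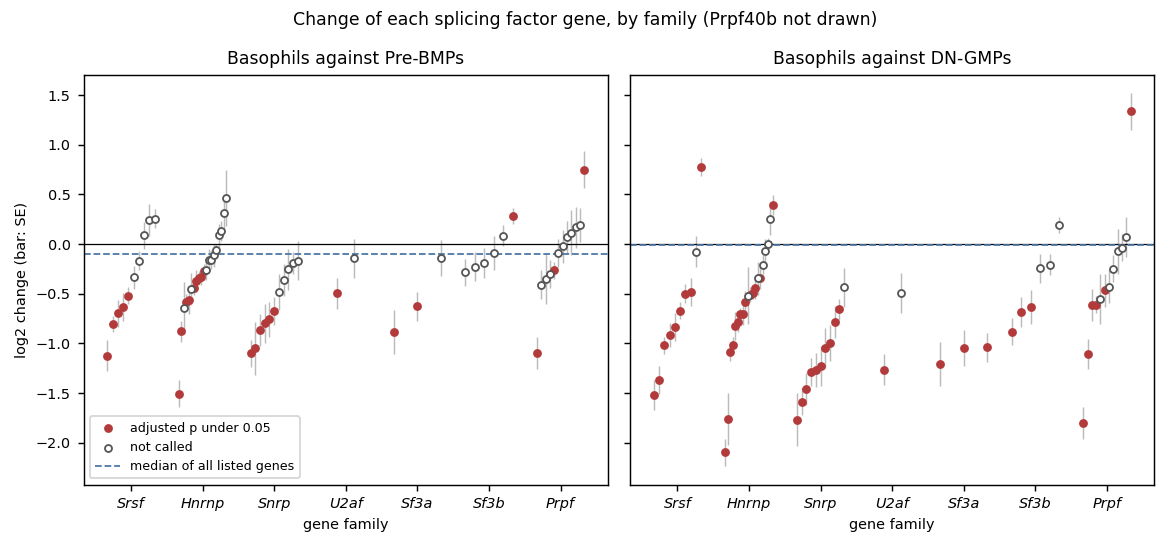
Log2 change of each member but Prpf40b in basophils against Pre-BMPs (left) and against DN-GMPs (right), 1 point per member by family with its SE as a bar. Filled points are called members (adjusted p under 0.05), and dashed lines are the medians of all listed genes. The medians of the members were -0.28 in basophils against Pre-BMPs and -0.66 in basophils against DN-GMPs.

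Among the SR proteins, 8 of 10 genes fell in basophils against DN-GMPs and 5 of 10 against Pre-BMPs. The shares called lower over all listed genes were 23.2% and 16.5%. Srsf10 encodes an SR protein known as a splicing repressor when dephosphorylated, as after heat shock. Its level was 132, 95.5 and 138 CPM in DN-GMPs, 124, 125 and 116 in Pro-BMPs, then 86.8, 102 and 85.8 in Pre-BMPs and 37.7, 46.5 and 42.0 in basophils. The basophil libraries were all far below the others. The fall was called against Pre-BMPs (log2 change -1.12, SE 0.153, adjusted p 0.000231) and against DN-GMPs (log2 change -1.52, SE 0.153, adjusted p 1.1e-05). Srsf7, which also acts in mRNA export, stood at 502, 439 and 494 CPM in DN-GMPs, 469, 446 and 452 in Pro-BMPs, then 409, 453 and 376 in Pre-BMPs and 223, 252 and 232 in basophils. Again the 3 basophil libraries were lowest, and the first 3 populations lay close together (basophils against Pre-BMPs: log2 change -0.80, SE 0.0843, adjusted p 3.4e-05). Srsf6 was at 303, 274 and 321 CPM in DN-GMPs, 261, 283 and 237 in Pro-BMPs, then 199.5, 208 and 161 in Pre-BMPs and 116, 137 and 97.95 in basophils. Its libraries stepped down at Pre-BMPs and again at basophils, and the basophil step was called (log2 change -0.70, SE 0.139, adjusted p 0.00287) while the Pre-BMP step was not (adjusted p 0.0617).

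Srsf1, the founding SR protein and a splicing enhancer of very many exons, had 199, 182 and 233 CPM in DN-GMPs, 239, 189 and 198 in Pro-BMPs, then 155, 211 and 171 in Pre-BMPs and 120.5, 117 and 106 in basophils. Basophils did not overlap with any other population, and the change against Pre-BMPs was -0.64 (SE 0.14, adjusted p 0.00524). Srsf3, the smallest SR protein and one that joins splicing to export and polyadenylation, had 498, 414 and 512 CPM in DN-GMPs, 412, 423 and 418 in Pro-BMPs, then 444, 442 and 392 in Pre-BMPs and 291, 310.0 and 288 in basophils. It fell in basophils against Pre-BMPs by 0.52 on the log2 scale (SE 0.0857, adjusted p 0.000853). Srsf2, an enhancer-binding SR protein mutated in myeloid neoplasms, had 267, 279 and 365 CPM in DN-GMPs, 289.9, 273 and 272 in Pro-BMPs, then 203, 207 and 195 in Pre-BMPs and 146, 180.3 and 155 in basophils. Its libraries were lower from Pre-BMPs on, and the step from Pro-BMPs was called (log2 change -0.47, SE 0.119, adjusted p 0.032), while that in basophils against Pre-BMPs missed the threshold (adjusted p 0.0539). The Pre-BMP call was lost on leaving out any of the 6 libraries, at adjusted p of 0.0685 to 0.106. It was also lost with library numbers as a block (0.0538) and with total-read scaling (0.0546). Of the Srsf2 exon length, 25.29% is overlapped by Mettl23 and Mfsd11 on the opposite strand, and these libraries do not mark strand. Srsf11 and Srsf9 fell in basophils against DN-GMPs (log2 changes -0.50 and -0.48), and Srsf4 was not called (adjusted p 0.718).

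Srsf5 was the SR gene that rose. It encodes an SR protein first described as an insulin- and growth-induced transcript in rat liver. Its level was 279.8, 303 and 359 CPM in DN-GMPs, 399, 410.4 and 380.4 in Pro-BMPs, then 443, 466 and 436 in Pre-BMPs and 529, 587 and 493 in basophils. Every library of a population lay above every library of the population before it. The rise was called in basophils against DN-GMPs (log2 change 0.78, SE 0.0945, adjusted p 4.92e-05), but no single step passed, with adjusted p of 0.1, 0.298 and 0.0628 from the first to the last.

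**Figure D3:**
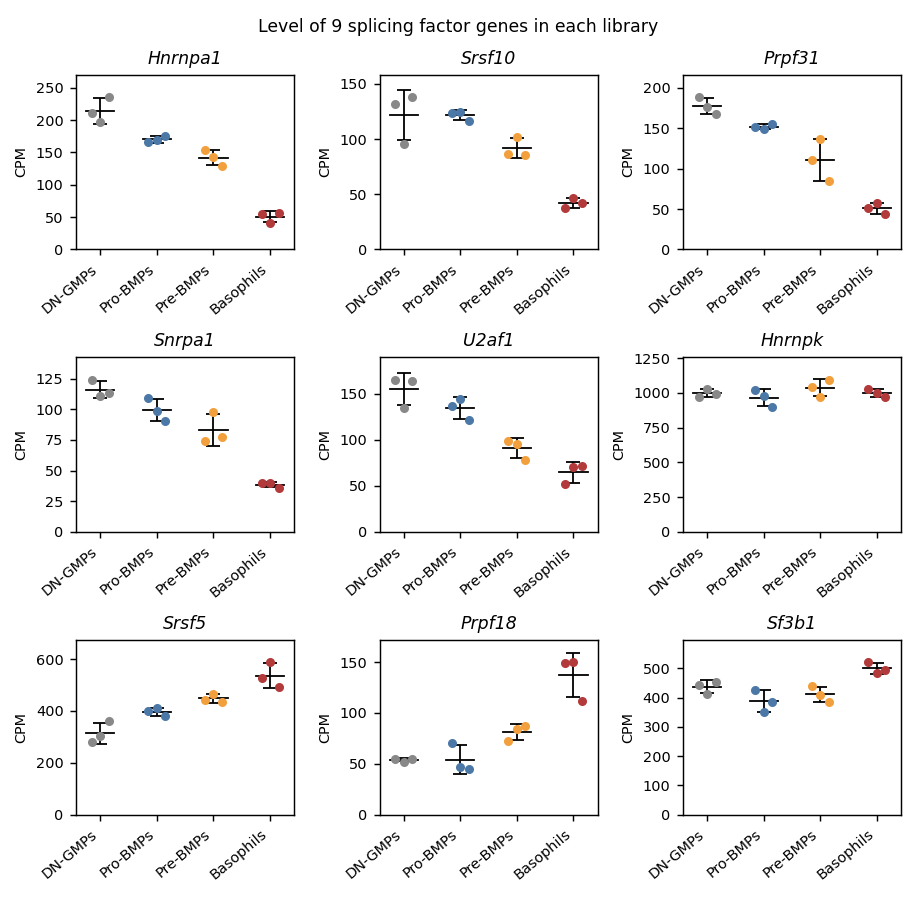
CPM in each library for named members, 1 point per library and a bar at the mean ± SD of the 3 libraries of each population, each panel on its own axis from 0. Hnrnpa1 stands at 40.4 to 56.1 CPM in basophils, while Srsf5 reaches 493 to 587 CPM there and Hnrnpk hardly differs between the populations.

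Of the hnRNP genes, 13 of 20 fell and Hnrnpf rose in basophils against DN-GMPs, and 9 of 20 fell against Pre-BMPs. Over all listed genes, 23.2% and 16.5% were called lower. Hnrnpa1, a splicing repressor that binds exonic and intronic silencers and antagonises SRSF1, had the largest change of the hnRNP genes in both comparisons. Its level was 210.4, 196 and 235 CPM in DN-GMPs, 166, 169.7 and 176 in Pro-BMPs, then 154, 143 and 129 in Pre-BMPs and 54.6, 40.4 and 56.1 in basophils. The basophil libraries were below all others by a wide margin, and the 9 progenitor libraries also stepped down without overlap between populations. In basophils the level was 0.355 of that in Pre-BMPs (log2 change -1.51, SE 0.135, adjusted p 1.03e-05), and the log2 change against DN-GMPs was -2.10 (SE 0.135, adjusted p 3.22e-07). Reads that aligned to more than 1 place were not given to genes, so a gene with near-identical processed copies, as Hnrnpa1 has, is counted only where its sequence is unique.

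Hnrnph1, which binds runs of G and tunes exon inclusion, had 229, 231 and 265 CPM in DN-GMPs, 244, 214 and 281 in Pro-BMPs, then 252, 249 and 273 in Pre-BMPs and 149, 139 and 134 in basophils. The progenitor libraries overlapped between populations, and the basophil libraries lay below them (log2 change -0.88, SE 0.106, adjusted p 0.000101 against Pre-BMPs). Its paralogue Hnrnph2 had 126, 137 and 121 CPM in DN-GMPs, 139, 130.5 and 115 in Pro-BMPs, then 105, 112 and 128 in Pre-BMPs and 131, 113 and 123 in basophils. All 4 populations overlapped, with an F-test adjusted p of 0.57. Hnrnpab, an A/B-type hnRNP that binds AU-rich RNA, had 503, 476 and 562 CPM in DN-GMPs, 471, 427 and 428 in Pro-BMPs, then 389, 341 and 355 in Pre-BMPs and 242, 224 and 257 in basophils. It was lowest in basophils without overlap (log2 change -0.59, SE 0.0859, adjusted p 0.000395 against Pre-BMPs). A share of 29.08% of its exon length is overlapped by Phykpl on the opposite strand.

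Hnrnpd, also named AUF1 and known for promoting decay of AU-rich mRNAs, had 226, 210.4 and 245 CPM in DN-GMPs, 202, 198 and 187 in Pro-BMPs, then 142, 143 and 139.5 in Pre-BMPs and 114, 111 and 111 in basophils. It fell at both of the last steps, and its call in Pre-BMPs against Pro-BMPs (log2 change -0.47, SE 0.0824, adjusted p 0.00473) was the only one of the 5 there that passed under each alternative tried. Hnrnpll, which drives the switch between CD45 isoforms in activated T cells, had 114, 129 and 142 CPM in DN-GMPs, 136, 148 and 125 in Pro-BMPs, then 97.05, 111 and 111 in Pre-BMPs and 62.2, 68.8 and 86.7 in basophils. Basophils were lowest and fell against Pre-BMPs (log2 change -0.56, SE 0.142, adjusted p 0.0108). Hnrnpa0, an AU-rich element binding protein, had 52.9, 30.8 and 51.9 CPM in DN-GMPs, 25.8, 25.2 and 23.4 in Pro-BMPs, then 22.6, 16.2 and 22.6 in Pre-BMPs and 10.1, 14.7 and 14.6 in basophils. It fell in basophils against DN-GMPs (log2 change -1.76, SE 0.26, adjusted p 0.000204), with no single step called.

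Several hnRNP genes were abundant in every population. Hnrnpu, a nuclear scaffold protein that binds chromatin and RNA, had 967, 1049 and 1157 CPM in DN-GMPs, 889, 891 and 881 in Pro-BMPs, then 855, 837 and 759 in Pre-BMPs and 651, 654 and 633 in basophils. Its basophil libraries were lowest, at a log2 change of -0.34 against Pre-BMPs (adjusted p 0.00268). Hnrnpa2b1, a reader that also sorts RNA into vesicles, had 1191, 1164 and 1381 CPM in DN-GMPs, 1220.0, 1113 and 1111 in Pro-BMPs, then 1096, 1057 and 1050.0 in Pre-BMPs and 897, 849.6 and 910.5 in basophils. It fell by 0.27 on the log2 scale against Pre-BMPs (adjusted p 0.00959). Hnrnpk, a poly(C)-binding protein of transcription and splicing, had 972, 1028 and 989.6 CPM in DN-GMPs, 1017, 980.2 and 898 in Pro-BMPs, then 1044, 973 and 1093 in Pre-BMPs and 1024, 1001 and 966 in basophils. Its libraries overlapped between all populations (F-test adjusted p 0.491), and the log2 change in basophils against DN-GMPs was 0.00 with an SE of 0.0588. Hnrnpl, which acts on CD45 exons and on CA repeats, had 182, 174 and 177 CPM in DN-GMPs, 194, 163 and 147 in Pro-BMPs, then 136, 173 and 149 in Pre-BMPs and 142, 142 and 137 in basophils. Its fall against DN-GMPs (adjusted p 0.0341) was not called when any 1 of the 6 libraries was left out, at adjusted p of up to 0.0828. Hnrnpf, a relative of Hnrnph1, had 156, 168 and 140.5 CPM in DN-GMPs, 174, 176 and 176 in Pro-BMPs, then 199, 186 and 173 in Pre-BMPs and 208, 219 and 183 in basophils. Its means ascended with no single step called, and its rise against DN-GMPs (log2 change 0.39, adjusted p 0.00707) was not called with total-read scaling (adjusted p 0.279) or quantile normalization (0.114). Of its exon length, 26.45% is overlapped by opposite-strand genes. Hnrnpdl, a close relative of Hnrnpd, fell in basophils against Pre-BMPs (log2 change -0.37, adjusted p 0.0282), and the call was lost without Pre-BMP library 1 (adjusted p 0.0837), Pre-BMP library 3 (0.0737) or basophil library 2 (0.1).

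Of the Snrp genes, which encode Sm proteins and proteins of the U1 and U2 snRNPs, 10 of 11 fell in basophils against DN-GMPs and 6 of 11 against Pre-BMPs. Their median log2 changes were -1.23 and -0.68. Among all listed genes, 23.2% and 16.5% were called lower in those comparisons. The summed level of the family in DN-GMPs was 1448 to 1817 CPM, that in Pro-BMPs 1357 to 1506, that in Pre-BMPs 962 to 1291 and that in basophils 730.0 to 872. Snrpa1 encodes the U2 A′ protein, which binds a stem-loop of U2 RNA together with the product of Snrpb2. Snrpa1 had 124, 111 and 113 CPM in DN-GMPs, 109, 98.7 and 90.6 in Pro-BMPs, then 74.2, 98.03 and 77.4 in Pre-BMPs and 39.9, 39.9 and 35.9 in basophils. Its basophil libraries lay close together and below all others (log2 change -1.10, SE 0.135, adjusted p 0.000109 against Pre-BMPs). Snrpb2 had 49.6, 51.1 and 79.2 CPM in DN-GMPs, 44.4, 47.9 and 47.1 in Pro-BMPs, then 33.9, 34.2 and 33.6 in Pre-BMPs and 22.8, 31.1 and 32.3 in basophils. It fell against DN-GMPs (log2 change -1.04, adjusted p 0.00142) and was not called against Pre-BMPs (adjusted p 0.384). Snrpa, the U1 A protein, fell against Pre-BMPs (log2 change -0.76, SE 0.174, adjusted p 0.00661), while Snrpc, the U1 C protein, was the Snrp gene not called against DN-GMPs (adjusted p 0.0908).

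The 7 Sm ring positions are filled by the products of Snrpb, Snrpd1, Snrpd2, Snrpd3, Snrpe, Snrpf and Snrpg, and the 7 genes fell together in basophils against DN-GMPs. Snrpd1 had 188, 142 and 153 CPM in DN-GMPs, 139, 161 and 139 in Pro-BMPs, then 113, 127 and 82.8 in Pre-BMPs and 57.8, 56.1 and 60.5 in basophils. Basophils lay below all other libraries (log2 change -0.87, SE 0.162, adjusted p 0.00192 against Pre-BMPs). Snrpd3 had 247, 182 and 195 CPM in DN-GMPs, 177, 199 and 168 in Pro-BMPs, then 138, 153 and 115 in Pre-BMPs and 78.8, 85.98 and 88.4 in basophils, with the same order of populations (log2 change -0.68, SE 0.14, adjusted p 0.00368 against Pre-BMPs). Snrpb, the SmB gene, had 518, 459 and 448 CPM in DN-GMPs, 408, 426 and 418 in Pro-BMPs, then 361, 378 and 296 in Pre-BMPs and 262, 326 and 317 in basophils. Basophil libraries 2 and 3 lay above Pre-BMP library 3, and the change was called against DN-GMPs (log2 change -0.66, SE 0.109, adjusted p 0.000456) but not against Pre-BMPs (adjusted p 0.217). Of the Sm genes, Snrpd1, Snrpd2, Snrpd3 and Snrpf were called at the last step, and Snrpb, Snrpe and Snrpg were not (adjusted p 0.217, 0.116 and 0.0648). Snrpf, at 5.85, 8.58 and 7.43 CPM in basophils, against 16.5, 18.3 and 10.99 in Pre-BMPs, was overlapped over 85.37% of its exon length by Ccdc38 and 4933408J17Rik on the opposite strand, so its reads cannot be assigned with certainty. Its call was also lost without Pre-BMP library 2 (log2 change -0.90, adjusted p 0.0524). Pre-BMP library 3 was the lowest Pre-BMP library for each of the 7 Sm genes.

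For branch point recognition, all 3 Sf3a genes fell in basophils against DN-GMPs, against 3 of 6 Sf3b genes. In that comparison 46.4% of all listed genes were called, and 23.2% were called lower. Sf3a1 had 109, 105 and 139 CPM in DN-GMPs, 134, 106 and 90.9 in Pro-BMPs, then 83.8, 131 and 74.7 in Pre-BMPs and 52.3, 43.96 and 56.5 in basophils. Basophils were lowest, and the Pre-BMP libraries were wide apart (log2 change -0.89, SE 0.221, adjusted p 0.0102 against Pre-BMPs). Sf3a3 had 219.7, 220.2 and 262 CPM in DN-GMPs, 150.1, 169.6 and 167 in Pro-BMPs, then 172, 189 and 165 in Pre-BMPs and 134, 121 and 89.8 in basophils. It also fell against Pre-BMPs (log2 change -0.63, SE 0.143, adjusted p 0.00622), whereas Sf3a2 did not pass there (log2 change -0.14, adjusted p 0.605). Sf3b3, Sf3b4 and Sf3b5 fell against DN-GMPs, by log2 changes of -0.68, -0.88 and -0.63. Sf3b2 and Sf3b6, of which Sf3b6 encodes the subunit that contacts the branch adenosine, were not called (adjusted p 0.132 and 0.2).

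Sf3b1, which encodes the largest SF3b subunit and the one most often mutated in myelodysplasia, had 444, 414 and 455 CPM in DN-GMPs, 426, 351 and 385 in Pro-BMPs, then 439, 408 and 386 in Pre-BMPs and 521, 486 and 495 in basophils. Each basophil library was above each library of the other populations. The call against Pre-BMPs (log2 change 0.28, SE 0.0806, adjusted p 0.02) depended on the scaling: the log2 change was -0.04 with libraries scaled by total reads (adjusted p 0.76) and -0.17 after quantile normalization (adjusted p 0.144). It was also lost without Pre-BMP library 2 (adjusted p 0.0562), Pre-BMP library 3 (0.071) or basophil library 1 (0.0705). U2af1, the small U2AF subunit that reads the AG of the 3′ splice site, had 165, 134 and 164 CPM in DN-GMPs, 137, 144 and 122 in Pro-BMPs, then 98.8, 95.5 and 78.1 in Pre-BMPs and 51.7, 70.98 and 71.5 in basophils. It fell in Pre-BMPs against Pro-BMPs (log2 change -0.57, SE 0.157, adjusted p 0.0436) and in basophils against Pre-BMPs (log2 change -0.50, SE 0.157, adjusted p 0.0323). The first call was lost on leaving out any of the 6 libraries, at adjusted p of 0.0587 to 0.161. It was also lost with library numbers as a block (0.0777) and with total-read scaling (0.0642). The second call was lost without Pre-BMP library 1 (adjusted p 0.108), Pre-BMP library 2 (0.0987) or basophil library 1 (0.118), and with the same block (0.056). Against DN-GMPs the log2 change was -1.26 (adjusted p 5.58e-05). U2af2, the large subunit that binds the polypyrimidine tract, had 44.9, 54.5 and 42.2 CPM in DN-GMPs, 62.1, 45.02 and 46.3 in Pro-BMPs, then 35.95, 41.5 and 33.6 in Pre-BMPs and 26.8, 39.7 and 34.9 in basophils. Its basophil libraries were below those of DN-GMPs, but the change missed the threshold (log2 change -0.49, SE 0.199, adjusted p 0.0633).

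Of the Prpf genes, 6 of 13 fell and Prpf18 rose in basophils against DN-GMPs. That is 53.8% called, near the 46.4% over all listed genes, where 23.2% were called lower. Prpf31 encodes a U4/U6 snRNP protein whose loss of 1 copy causes retinitis pigmentosa in people. It had 188, 177 and 167 CPM in DN-GMPs, 151, 149 and 156 in Pro-BMPs, then 111, 137 and 84.6 in Pre-BMPs and 50.8, 57.9 and 44.4 in basophils. Populations did not overlap from one to the next, and basophils were lowest, with log2 changes of -1.10 against Pre-BMPs (SE 0.162, adjusted p 0.000409) and -1.80 against DN-GMPs (adjusted p 4.6e-06). Its exons are overlapped over 18.09% of their length by Gm15927 on the opposite strand. Prpf19, an E3 ubiquitin ligase that heads its own spliceosomal complex, had 199, 228 and 196 CPM in DN-GMPs, 220.0, 211 and 161 in Pro-BMPs, then 144, 109 and 134 in Pre-BMPs and 88.5, 109 and 92.6 in basophils. It fell in Pre-BMPs against Pro-BMPs (log2 change -0.61, SE 0.148, adjusted p 0.0255) and was not called in basophils against Pre-BMPs (adjusted p 0.0577). The Pre-BMP call was lost without Pro-BMP library 1 (adjusted p 0.097) or 2 (0.0948) or Pre-BMP library 2 (0.0881) or 3 (0.0612). Prpf4, a partner of PRPF3 in the U4/U6 snRNP, had 66.4, 66.9 and 59.7 CPM in DN-GMPs, 61.5, 58.2 and 67.8 in Pro-BMPs, then 37.3, 38.2 and 44.6 in Pre-BMPs and 36.4, 51.2 and 39.6 in basophils, with its called fall likewise in Pre-BMPs against Pro-BMPs (log2 change -0.65, SE 0.158, adjusted p 0.0268), a call held without Pre-BMP library 3 and lost on leaving out any of the other 5, at adjusted p of 0.0574 to 0.0841.

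Prpf18, a factor of the second catalytic step, was the member with the largest called rise. It had 54.9, 51.9 and 54.9 CPM in DN-GMPs, 70.2, 46.5 and 44.7 in Pro-BMPs, then 72.4, 83.8 and 87.1 in Pre-BMPs and 149.6, 149.7 and 112 in basophils. The basophil libraries lay above all others, and Pre-BMPs above Pro-BMPs. The rise was called against Pre-BMPs (log2 change 0.75, SE 0.184, adjusted p 0.00955) and against DN-GMPs (log2 change 1.33, SE 0.184, adjusted p 0.000126). Against Pre-BMPs the call was lost with total-read scaling (log2 change 0.43, adjusted p 0.0914). Prpf8, the core U5 protein beside the catalytic centre, had 151, 190.0 and 161 CPM in DN-GMPs, 158, 157 and 104 in Pro-BMPs, then 102, 111 and 113 in Pre-BMPs and 106, 129 and 139 in basophils. Its mean was lowest in Pre-BMPs, and it was not called in basophils against DN-GMPs (adjusted p 0.0576). Prpf6, which bridges U5 and U4/U6, had 84.97, 79.96 and 104 CPM in DN-GMPs, 77.5, 83.9 and 117 in Pro-BMPs, then 82.7, 66.96 and 86.2 in Pre-BMPs and 70.2, 72.3 and 119 in basophils and the largest F-test p of all members (adjusted p 0.807).

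Prpf40b, a U1-associated protein, was the scarcest member. It had 5.22, 6.73 and 6.66 CPM in DN-GMPs, 4.4, 18.9 and 13.9 in Pro-BMPs, then 14.2, 3.51 and 6.72 in Pre-BMPs and 0.0231, 0.0694 and 3.46 in basophils. Basophil libraries 1 and 2 were at or under 3 reads, and library 3 lay just under the lowest Pre-BMP library. Its call in basophils against Pre-BMPs (adjusted p 0.0161) was lost with voom weights (adjusted p 0.0504), without Pre-BMP library 1 (0.061), and without basophil library 1 (0.0598) or 2 (0.0565). Prpf38a was called against DN-GMPs (log2 change -0.46, adjusted p 0.0388), a call lost without DN-GMP library 1 (adjusted p 0.134) or 3 (0.054) or basophil library 3 (0.142), and with library numbers as a block (0.053).

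Few splicing factor genes were called at the earlier steps. In Pro-BMPs against DN-GMPs, 0 of 65 members were called by limma, against 2.53% of all listed genes, and limma with voom weights also called 0. At an unadjusted p under 0.05, limma had 14 of 65 members lower, against 4.83% of all listed genes, and 1 higher, against 9.02%. The change was negative for 52 members, with a median log2 change of -0.16 against 0.02 over all genes, a difference of -0.18. After quantile normalization the medians were -0.09 and -0.03, a difference of -0.06. In Pre-BMPs against Pro-BMPs, Hnrnpd, U2af1, Prpf19, Prpf4 and Srsf2 fell, which is 7.69% of members against 9.49% of all listed genes (4.69% called lower and 4.8% higher), near the background. The calls were 3 lower and 1 higher with total-read scaling, and 6 lower and 2 higher after quantile normalization. The median log2 change was -0.22 in members and 0.02 over all genes, a difference of -0.24. With 1 library left out, 1 to 3 members were called at this step. Of the 26 members that fell in basophils against Pre-BMPs, Hnrnpd and U2af1 had also been called lower at the step before, and 24 were called at neither earlier step. Whether the steps differ in size was not tested.

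Per kilobase of exon, the members spanned a wide range of levels. In DN-GMPs the highest was Snrpb, at 241 ± 19.2 CPM per kb (SD, n = 3), with Hnrnpa2b1 at 189 ± 17.9, Hnrnpab at 185 ± 15.8, Hnrnpk at 154 ± 4.46 and Srsf7 at 135 ± 9.69. Hnrnpa2b1 and Hnrnpab differed by less than their SDs. In basophils Hnrnpk ranked first at 154 ± 4.49 CPM per kb and Snrpb was next at 153 ± 17.6, a difference smaller than the SD of Snrpb. Srsf7 was at 66.5 ± 4.24 CPM per kb in basophils and ranked 9. The lowest in DN-GMPs was Prpf40b at 1.25 ± 0.172 CPM per kb. Exon lengths were those of GENCODE M21, which may differ from the annotation the authors counted on. They took in all annotated exons of a gene, with stretches overlapped by other genes included (29.08% for Hnrnpab). The SDs do not cover errors from these lengths.

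Genes for the kinases that phosphorylate SR proteins moved in both directions. Of 8 listed, Srpk1, Clk2 and Clk3 rose and Srpk2 fell in basophils against Pre-BMPs, or 4 of 8, where 30.4% of all listed genes were called. Against DN-GMPs Clk1, Clk2, Clk3, Clk4 and Srpk1 rose and Srpk2 fell, which is 75.0% against 46.4%. Srpk1 phosphorylates SR proteins in the cytoplasm and so aids their import. It had 174, 142 and 128 CPM in DN-GMPs, 127, 128 and 136 in Pro-BMPs, then 132, 153 and 133 in Pre-BMPs and 285, 242 and 244 in basophils. Basophils stood above all progenitors (log2 change 0.88, SE 0.122, adjusted p 0.000257 against Pre-BMPs). Srpk2, its paralogue, had 64.2, 48.05 and 38.3 CPM in DN-GMPs, 48.2, 43.9 and 53.7 in Pro-BMPs, then 24.6, 28.03 and 33.6 in Pre-BMPs and 10.1, 8.47 and 8.23 in basophils. Basophils were lowest, with little spread (log2 change -1.68, SE 0.22, adjusted p 0.000174 against Pre-BMPs, and a log2 change of -2.46 against DN-GMPs). Clk1, a nuclear kinase of SR proteins that controls its own splicing, had 76.5, 50.4 and 64.5 CPM in DN-GMPs, 111, 73.9 and 92.1 in Pro-BMPs, then 108, 126 and 159 in Pre-BMPs and 143, 174 and 178 in basophils. It rose in basophils against DN-GMPs (log2 change 1.38, SE 0.203, adjusted p 0.000194) with no single step called. Clk3 had 53.8, 47.1 and 27.8 CPM in DN-GMPs, 30.7, 34.7 and 50.1 in Pro-BMPs, then 48.5, 41.9 and 51.6 in Pre-BMPs and 90.97, 91.5 and 76.02 in basophils. Its call against Pre-BMPs (log2 change 0.86, adjusted p 0.023) was lost without Pre-BMP library 1 or 2 or basophil library 1 or 2, at adjusted p of 0.0536 to 0.0806, and with total-read scaling (log2 change 0.54, adjusted p 0.117).

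**Figure D4:**
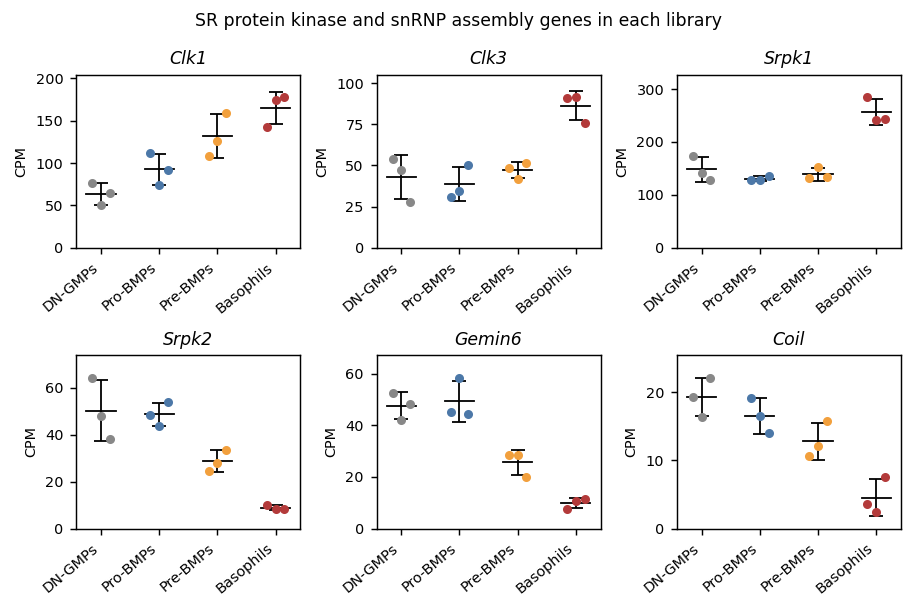
CPM in each library for 4 SR protein kinase genes and 2 snRNP assembly genes, 1 point per library and a bar at the mean ± SD of the 3 libraries of each population. Srpk1 is at 242 to 285 CPM in basophils, above every other library, and Srpk2, Gemin6 and Coil are lowest there.

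The assembly of snRNPs has its own genes. The SMN complex loads the Sm ring onto snRNA in the cytoplasm, after PRMT5 and its partners have methylated Sm proteins. Of the 14 listed assembly genes, 10 fell and Gemin7 rose in basophils against DN-GMPs, which is 78.6% called against 46.4% of all listed genes, with a median log2 change of -1.14. Against Pre-BMPs 7 of 14 fell, where 30.4% of all listed genes were called. The Gemin7 call (adjusted p 0.0469) was lost on leaving out any of 5 of the 6 libraries, at adjusted p of 0.0503 to 0.153, the exception being DN-GMP library 3. In all it was lost under 11 of 14 alternatives, among them total-read scaling (log2 change 0.14, adjusted p 0.467) and quantile normalization (adjusted p 0.235). Gemin6, an SMN complex subunit, had 52.4, 42.1 and 48.2 CPM in DN-GMPs, 44.9, 58.3 and 44.4 in Pro-BMPs, then 28.4, 28.3 and 20.0 in Pre-BMPs and 7.63, 10.7 and 11.51 in basophils. Pre-BMPs were lower than Pro-BMPs and basophils lower again (log2 change -1.36, SE 0.226, adjusted p 0.000895 against Pre-BMPs). Gemin2, which holds the Sm proteins during loading, fell against Pre-BMPs (log2 change -1.57, SE 0.446, adjusted p 0.0202), a call lost without Pre-BMP library 2 (adjusted p 0.0768). Coil, the scaffold of Cajal bodies where snRNPs mature, had 19.4, 16.4 and 22.1 CPM in DN-GMPs, 19.2, 16.5 and 13.97 in Pro-BMPs, then 10.6, 12.1 and 15.9 in Pre-BMPs and 3.58, 2.43 and 7.57 in basophils. Its basophil libraries were all below the rest (log2 change -1.65, SE 0.383, adjusted p 0.007 against Pre-BMPs). Smn1 had 40.2, 48.01 and 50.5 CPM in DN-GMPs, 48.03, 57.8 and 39.1 in Pro-BMPs, then 19.1, 20.8 and 15.2 in Pre-BMPs and 7.89, 16.4 and 29.1 in basophils. It was lower in Pre-BMPs than in Pro-BMPs (log2 change -1.39, SE 0.38, adjusted p 0.0422), a call that leaving out any of the 6 libraries ended, at adjusted p of 0.0628 to 0.144. Of the basophil libraries, 1 lay above all Pre-BMP libraries and 1 below them.

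Of 56 other subunits of the spliceosome, 24 fell and Syf2, Slu7 and Sart1 rose in basophils against DN-GMPs. That is 48.2% called, near the 46.4% over all listed genes, where 23.2% were called lower. In the F-test over the 4 populations 39.3% of them passed, against 46.8% of all listed genes. Lsm2, a subunit of the ring that binds U6 RNA, had 113, 106 and 124 CPM in DN-GMPs, 98.8, 111 and 98.5 in Pro-BMPs, then 63.8, 71.5 and 53.2 in Pre-BMPs and 26.9, 27.5 and 28.1 in basophils. It fell at both of the last steps, with log2 changes of -0.72 in Pre-BMPs against Pro-BMPs (adjusted p 0.00697) and -1.18 in basophils against Pre-BMPs (adjusted p 6.69e-05). Of the 8 Lsm genes, 6 fell against DN-GMPs, where 23.2% of all listed genes were called lower. Syf2, of the complex around PRPF19, had 35.9, 44.4 and 33.6 CPM in DN-GMPs, 36.04, 43.8 and 34.9 in Pro-BMPs, then 51.6, 61.5 and 64.6 in Pre-BMPs and 106, 105 and 101 in basophils. It rose at both of the last steps, though the call in Pre-BMPs against Pro-BMPs was lost without Pro-BMP library 1 (adjusted p 0.0879) or 3 (0.0834) or Pre-BMP library 2 (0.083) or 3 (0.105), with the rise in basophils against Pre-BMPs at a log2 change of 0.81 (adjusted p 0.00224). Against DN-GMPs the largest called changes after these were of Ppih, a U4/U6 cyclophilin (log2 change -1.66), and Slu7, a second-step factor (log2 change 0.88). Luc7l, a U1-associated protein, had the largest called fall of these against Pre-BMPs (log2 change -1.42, adjusted p 0.00978). Snrnp70, the U1 70K protein, had 181, 174 and 154 CPM in DN-GMPs, 192, 169 and 170.2 in Pro-BMPs, then 159, 163 and 135 in Pre-BMPs and 110.3, 136 and 118 in basophils. It fell against DN-GMPs (log2 change -0.48, adjusted p 0.00549) and was not called against Pre-BMPs (adjusted p 0.0542).

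Of 34 other splicing regulators, 13 fell and 7 rose in basophils against DN-GMPs, which is 58.8% called against 46.4% of all listed genes. Against Pre-BMPs 8 fell and 4 rose, which is 35.3% against 30.4%, near the background. Mbnl1, a muscleblind protein that binds YGCY motifs and acts in developmental splicing switches, had 285, 354 and 341 CPM in DN-GMPs, 245, 236 and 203 in Pro-BMPs, then 223, 276 and 276 in Pre-BMPs and 535, 479 and 496 in basophils. Its libraries dipped in Pro-BMPs and were highest in basophils, and the rise against Pre-BMPs was called (log2 change 0.97, SE 0.115, adjusted p 8.45e-05). The fall in Pro-BMPs against DN-GMPs (adjusted p 0.0377) was the 1 call among all 112 other splicing genes at that step, and leaving out any of 5 of the 6 libraries, all but DN-GMP library 1, ended it (adjusted p 0.0617 to 0.144). Ptbp1, the polypyrimidine tract repressor, had 305, 344 and 277 CPM in DN-GMPs, 248, 218 and 255 in Pro-BMPs, then 219, 192 and 188 in Pre-BMPs and 149, 147 and 177 in basophils. It fell against DN-GMPs (log2 change -0.97, SE 0.113, adjusted p 3.64e-05). Its paralogue Ptbp3, described in blood cells, had 155, 206 and 209 CPM in DN-GMPs, 197, 181 and 204 in Pro-BMPs, then 195, 301 and 290.4 in Pre-BMPs and 228, 216 and 203 in basophils, with no call against DN-GMPs (adjusted p 0.355). Tra2b, an SR-like activator of exon inclusion, had 227, 224 and 239.8 CPM in DN-GMPs, 223, 217 and 214 in Pro-BMPs, then 179.7, 200.2 and 188 in Pre-BMPs and 131, 129.6 and 131 in basophils. The basophil libraries lay close together and were the lowest (log2 change -0.53, SE 0.0741, adjusted p 0.000275 against Pre-BMPs). Tia1, which helps U1 bind weak 5′ splice sites, fell against Pre-BMPs (log2 change -1.68, SE 0.192, adjusted p 6.53e-05), and Cirbp, a cold-inducible RNA-binding protein, rose (log2 change 0.73, SE 0.181, adjusted p 0.0102), a call lost with total-read scaling (log2 change 0.41, adjusted p 0.118). Against DN-GMPs, Syncrip had the largest called fall of the list (log2 change -1.55), while Cirbp and Taf15 had the largest called rises (log2 changes 1.49 and 1.07). Mbnl3 passed in none of the 4 comparisons (adjusted p 0.606 against DN-GMPs).

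All 112 genes of these other lists came in DN-GMPs to a sum of 11851 to 12102 CPM, in Pro-BMPs to 11226 to 11652, in Pre-BMPs to 10743 to 11192, and in basophils to 10243 to 10539. In basophils against DN-GMPs, 48 fell and 16 rose, which is 57.1% called against 46.4% of all listed genes. The median log2 change of the 112 was -0.30, beside -0.66 in the 65 members. No test set the members against these genes.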

How the data were processed

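The authors deposited 1 table of log2 values for 14560 genes in 12 libraries. The labels' protocols give sorting in 2 rounds, TRIzol, SmartSeq v4 and Nextera XT, kits that do not mark strand. The submitters' processing notes name Trimmomatic, STAR, deepTools and HTSeq. Tool versions, genome build and annotation: not given in the sources used here. Each deposited log2 value is of reads plus 0.5 per 1000000 of a library size that includes a scaling factor. The reads behind each value came out within 0.001 of whole for 100% of values, and CPM was computed from them. The 3 rows that name no gene stayed out of all tests: their shares per library were 6.65% to 12.6% (no feature), 3.63% to 4.14% (ambiguous) and 8.51% to 12.1% (not unique). A count of 0 allows up to 3 reads (0.0512 to 0.0745 CPM), and such limits cover counting error only.

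The log2 values were fitted with limma 3.58.1 (R 4.3.3) over all 12 libraries, with 1 mean per population, a mean-variance trend and no block. Tests were two-sided. A gene was called at a p under 0.05 after Benjamini-Hochberg adjustment over the 14560 genes. Log2 changes are differences between population means of these log2 values, which include the read fraction that the authors added. For low genes they can understate or overstate the change in mean CPM. For Prpf40b in basophils against Pre-BMPs the log2 change was -5.02. Its mean CPM in basophils was 0.145 of that in Pre-BMPs, which is a smaller fall. Alternatives were voom weights, median-of-ratios, total-read and quantile scaling, 5 reads added, a mean above 10 CPM, a replicate block, 2 populations fitted alone, and each library left out. The fits were tested on simulated data. Overlaps and exon lengths came from GENCODE M21 (GRCm38) and promoters from RefSeq (GRCm38.p6).

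The members and gene lists were chosen with earlier results of these data known. Values per library were given for the 3 called members with the largest rise and fall in each comparison, for the 5 smallest and 3 largest F-test p, and for a list of well-studied members. Others were added where they complete a family. In other lists, the 2 largest called changes per direction and a short list were named. Snrpn and U2af1l4 were not analysed here. The values of 1 member are not reported here, though it is included in counts, sums and medians.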

Additional observations from a re-analysis of the deposited data

How the results depend on the processing

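Of the members called, 43 of 47 in basophils against DN-GMPs, 21 of 28 in basophils against Pre-BMPs and 1 of 5 in Pre-BMPs against Pro-BMPs were called under every alternative. Sf3b1 turned to -0.037 with total-read scaling and -0.17 after quantile normalization in basophils against Pre-BMPs. Counts of members called moved as follows. In Pro-BMPs against DN-GMPs, quantile normalization called 1 in place of 0. In Pre-BMPs against Pro-BMPs, voom weights called 9 and quantile normalization 8 in place of 5. In basophils against Pre-BMPs, total-read scaling called 44, all lower, in place of 28. For the other splicing genes, quantile normalization, the replicate block and 2 populations fitted alone called 0 in place of 1 in Pro-BMPs against DN-GMPs. At the next steps voom weights called 13 in place of 7, and total-read scaling 59 in place of 36 (3 higher and 56 lower, against 8 and 28). With 1 library left out, members called ran from 43 to 47 (F-test), 0 to 1, 1 to 3, 24 to 28, and 45 to 48 (basophils against DN-GMPs), and other genes from 46 to 56, 0 to 1, 2 to 6, 24 to 38 and 57 to 60. Same-numbered libraries were treated as unpaired. Their deviations from the population means correlated at -0.123 to 0.127, beside -0.108 to 0.131 for different numbers. Deviations from a mean of 3 libraries depend on each other, so these ranges cannot decide whether a number marks a mouse. With the replicate block, 47, 0, 4, 26 and 47 members were called in the same order, and U2af1, Prpf38a and Srsf2 were among those that lost a call. The median of all genes in basophils against Pre-BMPs was -0.10, -0.06 (median of ratios), -0.42 (total reads) and -0.05 (quantile). The cause of these shifts was not tested.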
